A study of Mus musculus with 12 samples.

Results

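The genes described here build and shape the actin cortex: subunits of the Arp2/3 complex, actin and its monomer binders, filament end, branch and bundle proteins, membrane linkers, crosslinkers, non-muscle myosin II, adhesion and scaffold proteins, small GTPases and septins. They form a list of 48 genes chosen by earlier results of the same comparison together with their function, and 47 of them stand in the deposited table of 11834 genes. Sept6 was not analysed here. Because the list was selected on values from these libraries, the differences between genotypes given for its members are a description and were not used as evidence.

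PolyA RNA was sequenced from the whole lactating mammary gland of C57BL/6 mice, 1 library per mouse, in first lactation. The 5 wild-type (WT) mice were on lactation day 10 (replicates 1, 4 and 5), day 9 (replicate 2) and day 11 (replicate 3). The 7 knockout (KO) mice, Btn1a1-/-, were on day 10 except replicate 3 on day 8 and replicate 4 on day 11. Btn1a1 encodes butyrophilin, a membrane protein of the secreting cell that surrounds milk fat globules, and its level was 11.07 ± 0.092 log2 CPM in WT (SD, n = 5) and 5.63 ± 0.30 in KO (SD, n = 7). Mice of either genotype may have had 1 of 2 diets, which the labels do not assign to mice, and mutants came from heterozygote pairs kept apart from the wild-type colony, so the effect of genotype and those of line and diet cannot be told apart. Levels are log2 CPM, the base-2 logarithm of reads scaled to a common library total (CPM) as the authors normalized them, and a difference is the KO mean minus the WT mean on that scale with its standard error (SE). In a whole gland, fewer cells of a type and less RNA per cell cannot be told apart.

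Branched actin networks are started by the Arp2/3 complex, which binds the side of a filament and seeds a new one. Monomers are supplied by profilin, cofilin and the thymosins, filaments are crosslinked, tied to the membrane and pulled on by myosin II, and septins form a separate scaffold under the membrane. In the lactating gland, the secreting cells carry actin under their apical membrane where fat globules leave, and the myoepithelial cells around each alveolus are contractile and rich in actin, myosin and tropomyosin.

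The members were mostly higher in the KO gland. A limma fit over all 11834 genes called 19 of the 47 members at an adjusted p under 0.05, where 9.36% of all genes were called. Of these, 18 were higher in KO (4.84% of all genes) and 1, Myh9, was lower (4.52% of all genes). The median difference over the members was 0.29 log2, beside -0.031 over all genes, and 43 members had a positive and 4 a negative difference. For 15 members every KO library lay above every WT library, which held for 2.69% of all genes. No member had every KO library below every WT library, which held for 324 of the 11834 genes. These 15 were Arpc1b, Arpc4, Arpc5, Cfl1, Tmsb10, Capg, Vasp, Actn1, Tpm4, Myl12a, Zyx and Sept11, which were called, and Actr3, Cdc42 and Sept10, which were not. Most members are abundant here, since the WT mean of 42 of the 47 was above the median of all genes. The plot of differences by role places each member on this scale.

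**Figure D1:**
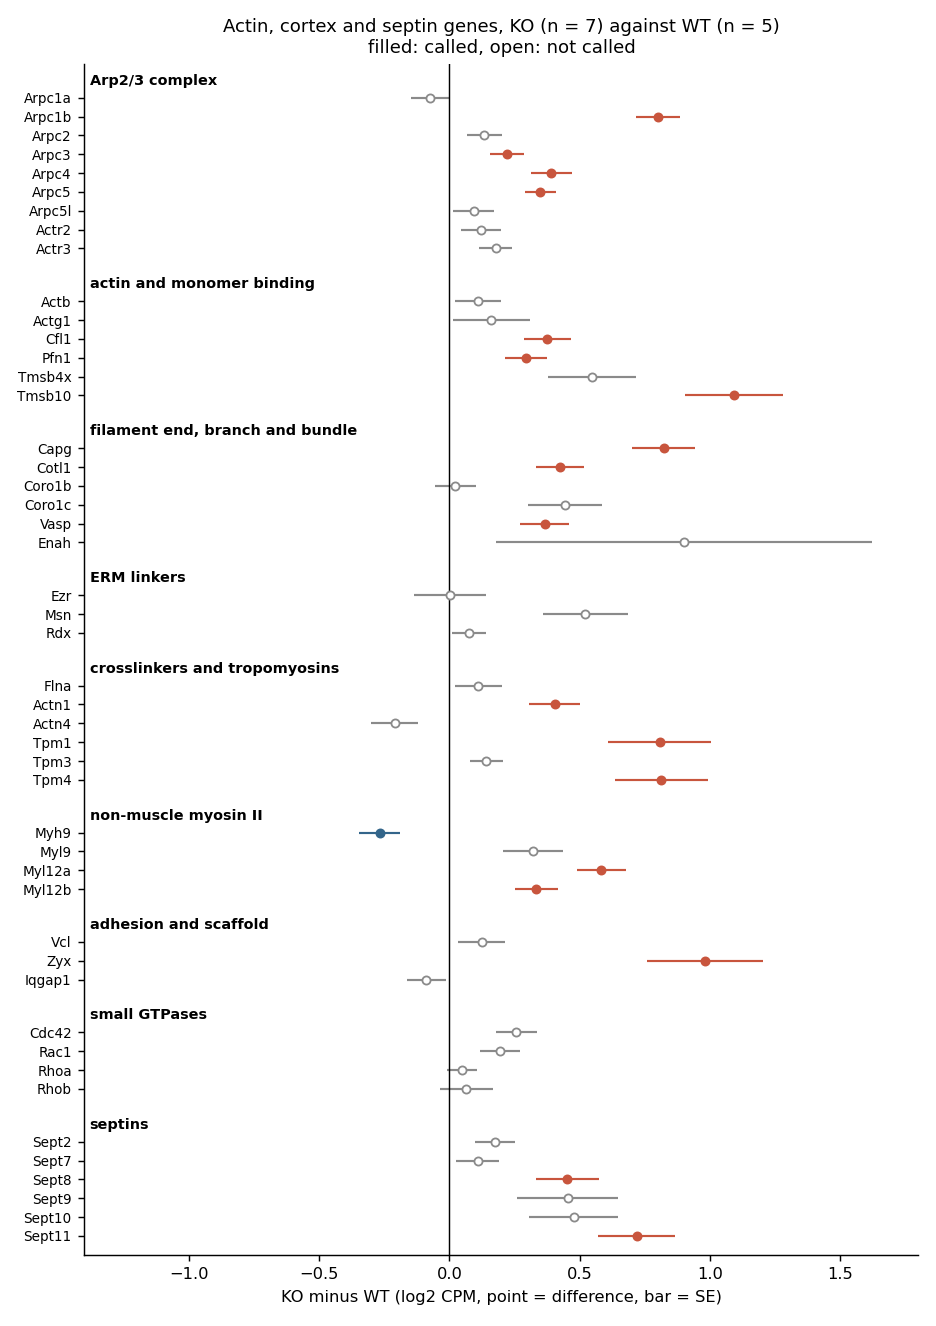
KO minus WT difference of the 47 members in log2 CPM (x axis, point) with its SE (bar), grouped by role; filled points were called by limma, red when higher in KO and blue when lower, and open points were not called. Tmsb10 lies farthest to the right at 1.09, Myh9 is the called member on the left at -0.27, and Enah has the widest bar.

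The size of the difference varied from member to member and from mouse to mouse. The mean of the 47 members relative to the WT mean was -0.061, 0.041, 0.021, 0.0022 and -0.0033 in WT replicates 1 to 5 and 0.40, 0.54, 0.21, 0.43, 0.18, 0.20 and 0.33 in KO replicates 1 to 7. KO replicate 2 was the highest and KO replicate 5 the lowest of the KO libraries. The KO spread exceeded the WT spread (SD between libraries) for 33 of the 47 members (70.2%), beside 63.1% of all genes. In the map of members by library, the dark rows are Arpc1b, Tmsb10, Capg, Tpm1, Tpm4, Zyx and Sept11, and the near-white rows include close relatives such as Arpc1a, Tpm3 and Sept7.

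**Figure D2:**
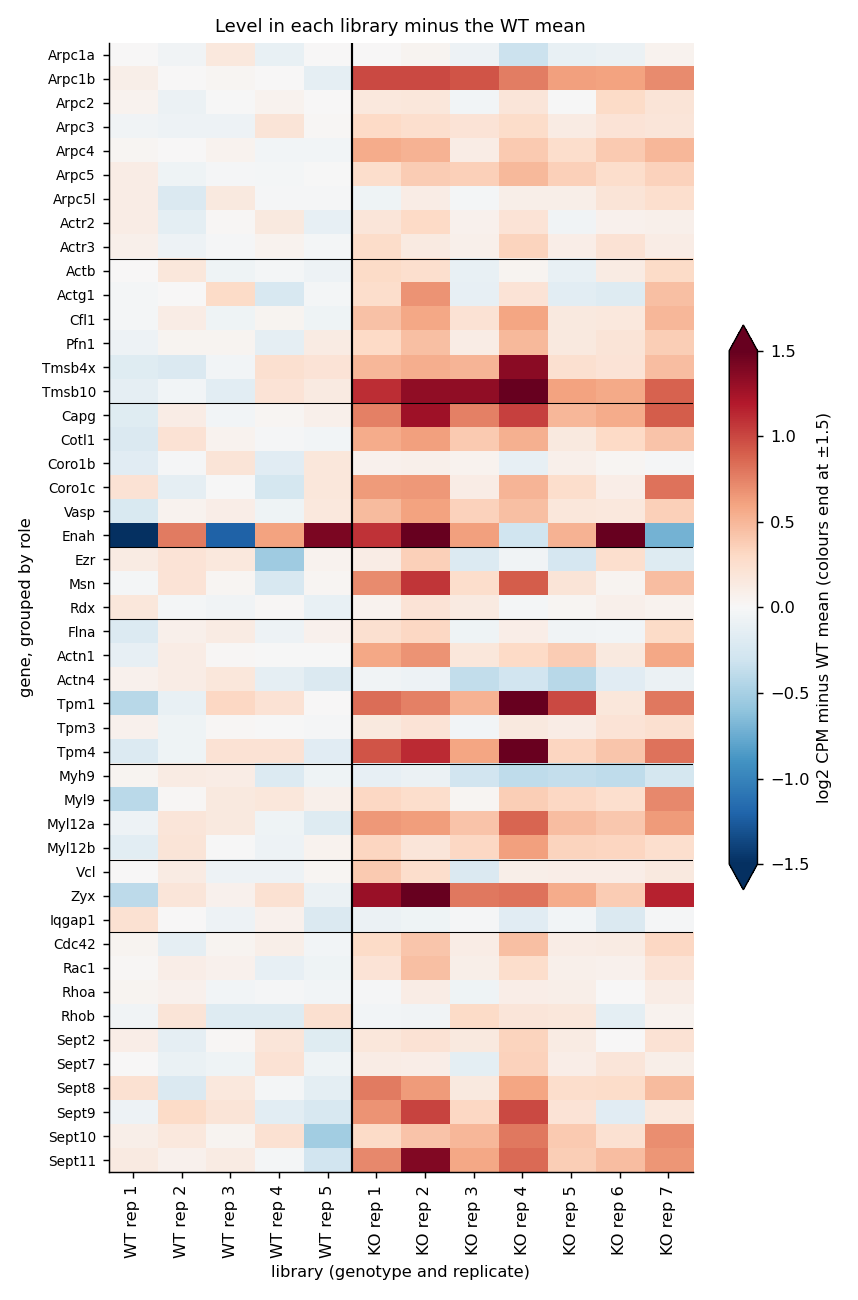
Level of each member (rows, grouped by role between thin lines) in each library (columns, WT left and KO right of the thick line) minus the WT mean, in log2 CPM; red is above the WT mean, blue below, and the colours end at 1.5 in either direction. Arpc1b is red in all 7 KO libraries, whereas Enah is red and blue in both genotypes.

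Many actin, myosin light chain and adhesion genes are textbook targets of serum response factor, which binds the CArG box, and the site of AP-1, a factor of growth and stress, was searched beside it. Promoters from RefSeq (GRCm38.p6, 250 bases before to 50 after a start site, which can lie inside the gene) matched 42 of the 47 members by symbol. A gene was counted when any of its promoters held the motif. A CArG box, which is CC, then 6 letters each A or T, then GG, was found on either strand in 4 of the 42 (9.52%). Of the 9219 genes of the deposited table matched in the same way, 1.68% had one. An AP-1 site, TGAGTCA or its complement TGACTCA, was found in 5 of the 42 (11.9%: Ezr, Myl12a, Zyx, Sept7 and Sept9), beside 4.57% of the 9219 genes. The sequences shown are 80-base windows with the motif in capitals, chosen as all 4 CArG boxes, of which Arpc4 alone belongs to a called member, and then the AP-1 sites of the called Zyx and Myl12a.
Arpc4, chr6:113377863-113377942, plus strand: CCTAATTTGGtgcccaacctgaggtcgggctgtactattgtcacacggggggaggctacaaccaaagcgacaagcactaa
Actg1, chr11:120348536-120348615, minus strand: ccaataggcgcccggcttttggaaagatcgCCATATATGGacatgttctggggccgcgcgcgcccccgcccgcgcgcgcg
Myl9, chr2:156775273-156775352, plus strand: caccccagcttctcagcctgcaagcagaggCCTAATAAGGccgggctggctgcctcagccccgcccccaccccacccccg
Vcl, chr14:20929148-20929227, plus strand: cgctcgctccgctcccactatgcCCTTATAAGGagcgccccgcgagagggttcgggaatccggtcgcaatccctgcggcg
Zyx, chr6:42349677-42349756, plus strand: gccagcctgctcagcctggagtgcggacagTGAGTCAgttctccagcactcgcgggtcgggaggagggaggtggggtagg
Myl12a, chr17:71002621-71002700, minus strand: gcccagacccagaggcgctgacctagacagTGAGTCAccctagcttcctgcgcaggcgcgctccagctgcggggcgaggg
All are written 5′ to 3′ on the strand of the gene. The CArG box of Actg1 begins 90 bases before the start and that of Arpc4 250 bases before it, at the edge of the window searched. The matches are letters in these windows and carry no measurement of binding.

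The subunits of the Arp2/3 complex come from 9 genes here, because Arpc1 and Arpc5 each have a pair of forms. Of the 9 genes, 4 rose in KO (Arpc1b, Arpc3, Arpc4 and Arpc5), none fell, and the median difference was 0.18 log2. Arpc1b, the form of the p40 subunit that dominates in blood cells, was at 5.95, 5.88, 5.90, 5.88 and 5.74 log2 CPM in WT replicates 1 to 5, and in KO at 6.48 to 6.86 with a median of 6.64. The lowest KO library was above the highest WT library by more than the whole WT range. The difference was 0.80 (SE 0.084), or 1.74-fold.

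The other p40 form did not show that pattern. Arpc1a was at 5.52, 5.47, 5.68, 5.41 and 5.53 in WT and at 5.20 to 5.57 with a median of 5.44 in KO. The groups overlapped, and the difference was -0.074 (SE 0.074) and not called. The genes are neighbours on 1 strand, at chr5:145083830-145108761 and chr5:145114215-145130705 (GENCODE M21, mm10, plus strand). Within each library, a single scale factor cancels in the ratio of 2 genes, but the authors' quantile normalization need not. The log2 ratio of Arpc1b to Arpc1a was 0.21 to 0.48 in WT and 1.01 to 1.44 in KO. No KO library reached the WT range of that ratio. The ratio is not per length, so it compares libraries and does not rank the 2 genes: per kilobase of transcript, Arpc1b was at 4.24 and Arpc1a at 4.81 log2 CPM per kilobase in WT.

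Arpc5 and Arpc5l encode the p16 subunit. Arpc5 was at 5.26, 5.08, 5.13, 5.11 and 5.14 in WT and at 5.40 to 5.62 with a median of 5.49 in KO, with no overlap (difference 0.35, SE 0.06). Arpc5l was at 3.69 to 4.04 in WT and 3.84 to 4.16 in KO (difference 0.094, SE 0.079, not called). The ratio of Arpc5 to Arpc5l overlapped between groups, at 1.08 to 1.40 in WT and 1.31 to 1.63 in KO.

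Arpc4 (p20) joins Arpc2 as the structural core of the complex. It was at 4.17, 4.14, 4.19, 4.09 and 4.09 in WT and at 4.24 to 4.68 with a median of 4.53 in KO, so every KO library was higher, KO replicate 3 by the least. The difference was 0.39 (SE 0.079). Arpc3 (p21) differed by 0.22 (SE 0.064), with KO replicates 5 and 7 inside the WT range, and Arpc2 (p34) by 0.13 (SE 0.067, not called). The actin-related subunits on which a new branch grows, Actr2 and Actr3, differed by 0.12 and 0.18 (SE 0.077 and 0.063) and were not called, although every KO library of Actr3 was above every WT library. The subunits of 1 complex thus ranged from -0.074 to 0.80. The call of Arpc3 ended when any 1 of 9 libraries was left out, and those of Arpc1b, Arpc4 and Arpc5 held without each of the 12.

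**Figure D3:**
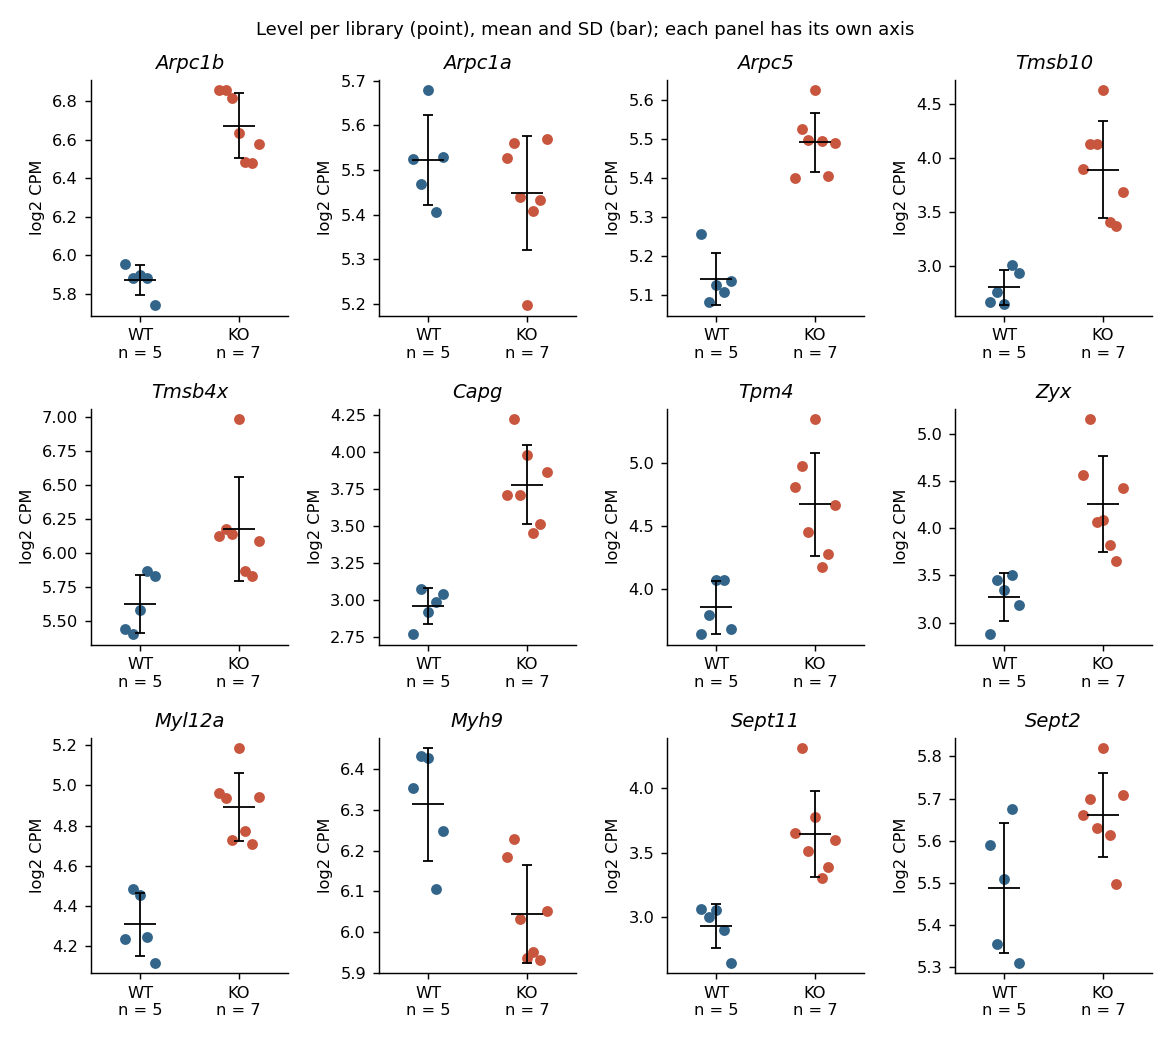
Level of 12 members in log2 CPM (y axis, its own range in each panel) per library, WT blue (n = 5) and KO red (n = 7), with the mean and SD as black bars. Arpc1b, Arpc5, Tmsb10, Capg, Tpm4, Zyx, Myl12a and Sept11 show KO libraries wholly above WT libraries, Arpc1a, Tmsb4x, Myh9 and Sept2 overlap, and KO replicate 4 stands apart in Tmsb4x.

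Neither cytoplasmic actin was called. Per kilobase of transcript, Actb and Actg1 had the highest WT levels of the members (6.49 and 6.19 log2 CPM per kilobase), ahead of Tmsb4x (6.01). These per-length levels use 1 principal transcript per gene. Actb was at 7.35 to 7.59 log2 CPM in WT and 7.32 to 7.72 in KO (difference 0.11, SE 0.089), and Actg1 at 6.92 to 7.44 and 6.97 to 7.83 (difference 0.16, SE 0.15). The groups overlapped in both. The 2 actins are near-identical in sequence, so the split of reads between them is uncertain. Their ratio, Actg1 to Actb, was -0.48 to 0.076 in WT and -0.58 to 0.15 in KO.

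Tmsb10 encodes thymosin beta 10, a small protein that holds actin monomers in reserve. Its WT libraries were at 2.66, 2.75, 2.64, 3.00 and 2.93 log2 CPM and its KO libraries at 3.90, 4.13, 4.12, 4.62, 3.40, 3.37 and 3.68 (replicates 1 to 7). All KO libraries were above all WT libraries, KO replicates 5 and 6 by the least and KO replicate 4 by the most. The difference of 1.09 (SE 0.19, 2.13-fold) was the largest of the members.

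Tmsb4x encodes thymosin beta 4, the related and more abundant reserve protein. It was at 5.44, 5.41, 5.58, 5.87 and 5.83 in WT and at 6.13, 6.18, 6.14, 6.98, 5.87, 5.83 and 6.09 in KO. KO replicate 4 stood far above the rest, KO replicates 5 and 6 were level with the highest WT libraries, and the difference of 0.55 (SE 0.17) was not called. The log2 ratio of Tmsb10 to Tmsb4x was -2.94 to -2.66 in WT and -2.47 to -2.01 in KO, without overlap. Both genes have near-identical copies, which makes their counts uncertain.

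Cfl1, which severs old filaments (cofilin), was at 5.41, 5.55, 5.37, 5.48 and 5.37 in WT and at 5.59 to 6.03 with a median of 5.88 in KO. The groups did not overlap (difference 0.38, SE 0.09), and the call ended without WT replicate 1. Pfn1, which feeds monomers to growing ends (profilin), differed by 0.29 (SE 0.08) with overlap by 1 KO library, and its call ended when any 1 of 8 libraries was left out. In all, 3 of the 6 actin and monomer-binding genes rose, none fell, and the median difference was 0.33.

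Among the 6 proteins of filament ends, branches and bundles, 3 rose (Capg, Cotl1 and Vasp), none fell, and the median difference was 0.43. Capg, a capping protein of the gelsolin family known from macrophages, was at 2.77, 3.07, 2.92, 2.99 and 3.04 in WT and at 3.45 to 4.22 with a median of 3.71 in KO. Every KO library was above the WT range, KO replicate 2 highest, and the difference was 0.82 (SE 0.12, 1.77-fold). The macrophage marker score, given further on, was higher in KO as well. With that score as a covariate the Capg difference was 0.70, and the part of these cells in it was not tested.

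Cotl1, a filament-binding protein of the cofilin fold, was at 3.58 to 4.01 in WT and 3.94 to 4.41 in KO (difference 0.42, SE 0.093), with KO replicate 5 inside the WT range. Vasp and Enah lengthen filaments at their growing ends. Vasp was at 3.10, 3.37, 3.42, 3.25 and 3.48 in WT and at 3.49 to 3.93 with a median of 3.69 in KO (difference 0.37, SE 0.094). The gap between groups was narrow, and the call ended without WT replicate 1, WT replicate 4 or KO replicate 1.

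Enah had the largest SD of the members in either group. Its WT libraries were at -0.27, 2.09, 0.10, 1.91 and 2.72 and its KO libraries at 2.39, 4.13, 1.93, 1.02, 1.83, 3.57 and 0.61. The libraries of both groups were scattered over broad, overlapping spans, and the difference of 0.90 (SE 0.72) was not called. The coronins, which turn over branches, gave 0.44 for Coro1c (SE 0.14) and 0.023 for Coro1b (SE 0.077), neither called.

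The ERM proteins tie cortical actin to the plasma membrane, and none of the 3 was called by limma, while 1 (Msn) had an unadjusted p under 0.05. Msn (moesin) was at 3.73, 3.95, 3.78, 3.51 and 3.78 in WT and at 3.79 to 4.82 with a median of 4.21 in KO (difference 0.52, SE 0.16). KO replicates 1, 2 and 4 were well above the WT range, and KO replicates 5 and 6 were inside it. Ezr (ezrin), the form of apical epithelial membranes, gave 0.0023 (SE 0.14) and Rdx (radixin) 0.074 (SE 0.065).

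Crosslinkers join filaments into networks and bundles. Of the 6 crosslinker and tropomyosin genes, 3 rose (Actn1, Tpm1 and Tpm4), none fell, and the median difference was 0.27. Tropomyosins run along filaments and set which partners can bind. Tpm4 was at 3.65, 3.80, 4.08, 4.08 and 3.69 in WT and at 4.18 to 5.34 with a median of 4.67 in KO, with no overlap (difference 0.81, SE 0.18). KO replicate 4 was highest, and KO replicates 5 and 6 were just above the WT range.

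Tpm1, of muscle and stress fibres, was at 5.27, 5.58, 6.00, 5.91 and 5.70 in WT and at 6.53, 6.44, 6.21, 7.27, 6.68, 5.87 and 6.48 in KO. KO replicate 6 lay inside the WT range and KO replicate 4 was the highest (difference 0.81, SE 0.20). The call ended without WT replicate 1, 2 or 5 (adjusted p up to 0.0695). The skeletal muscle, macrophage, leukocyte, fibroblast and pericyte marker scores, given further on, all had their maximum in KO replicate 4 as well, and their lowest KO value in KO replicate 6. The Tpm1 difference was 0.46 with the muscle score as a covariate, 0.39 with the macrophage score, 0.67 with the leukocyte score and 0.58 with the basal score, and the part of these cells in it was not tested. Tpm3 gave 0.14 (SE 0.062, not called), and the ratios of Tpm4 and of Tpm1 to Tpm3 overlapped between groups.

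The alpha-actinins bundle filaments, Actn1 at stress fibres and Actn4 at the cortex and in many epithelia. Actn1 was at 3.49, 3.72, 3.62, 3.60 and 3.61 in WT and at 3.76 to 4.28 with a median of 3.99 in KO, with no overlap (difference 0.40, SE 0.10), and the call ended without WT replicate 1 (adjusted p = 0.0582). Actn4 was at 6.74, 6.78, 6.85, 6.54 and 6.46 in WT and at 6.25 to 6.62 with a median of 6.50 in KO, a difference of -0.21 (SE 0.09) that was not called, with overlap. The log2 ratio of Actn1 to Actn4 was -3.25 to -2.85 in WT and -2.74 to -2.27 in KO, without overlap. Flna, a large flexible crosslinker, gave 0.11 (SE 0.09, not called).

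Non-muscle myosin II pairs heavy chains with light chains, and here the chains differed in direction. The heavy chain gene Myh9 was the called member that was lower in KO. It was at 6.35, 6.43, 6.43, 6.11 and 6.25 in WT and at 5.93 to 6.23 with a median of 6.03 in KO (difference -0.27, SE 0.079). KO replicates 1 and 2 were within the WT range and the others below it, and the call ended when any 1 of 9 libraries was left out.

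Myl12a, a regulatory light chain, was at 4.24, 4.49, 4.45, 4.25 and 4.12 in WT and at 4.71 to 5.18 with a median of 4.94 in KO, all KO libraries above all WT libraries (difference 0.58, SE 0.093). The log2 ratio of Myl12a to Myh9 was -2.13 to -1.86 in WT and -1.30 to -0.75 in KO, without overlap. Myl12b gave 0.33 (SE 0.083), a call that ended without WT replicate 1 or WT replicate 4, and Myl9, the light chain of smooth muscle and myoepithelium, gave 0.32 (SE 0.12, not called). The light chains are close in sequence and the annotated Myl12a and Myl12b genes overlap on chromosome 17, so the split of reads among them is uncertain.

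**Figure D4:**
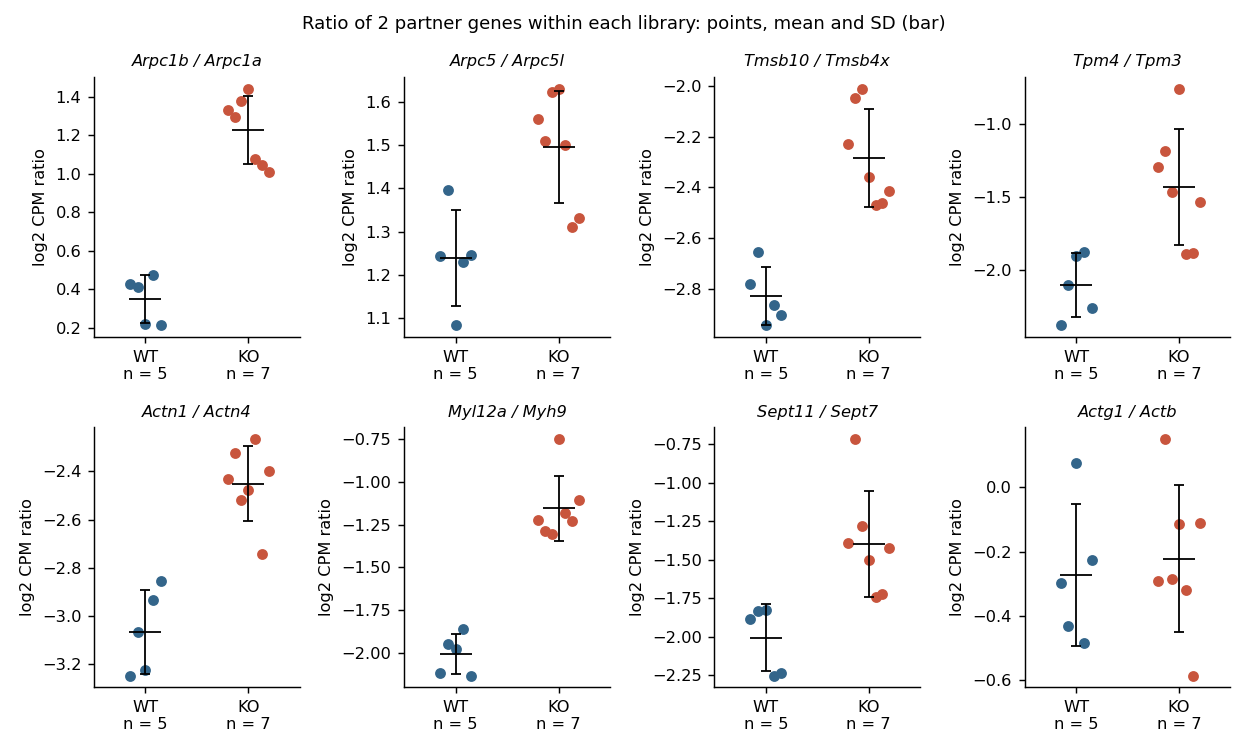
Log2 ratio of the levels of 2 partner genes within each library (y axis, its own range in each panel), WT blue (n = 5) and KO red (n = 7), with the mean and SD as black bars. The groups do not overlap for Arpc1b to Arpc1a, Tmsb10 to Tmsb4x, Actn1 to Actn4, Myl12a to Myh9 and Sept11 to Sept7, and they overlap for Arpc5 to Arpc5l, Tpm4 to Tpm3 and Actg1 to Actb. Further ratios that were taken but not drawn all overlap: Tpm1 to Tpm3, Msn to Ezr, Msn to Rdx, Coro1c to Coro1b and Sept9 to Sept2. The share of non-overlap over other gene pairs is not given here.

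Zyx encodes zyxin, which gathers at focal adhesions and strained stress fibres. It was at 2.88, 3.45, 3.34, 3.50 and 3.19 log2 CPM in WT and at 4.56, 5.15, 4.06, 4.09, 3.83, 3.65 and 4.42 in KO. Every KO library was above every WT library, KO replicate 2 highest and KO replicate 6 closest to WT. The difference was 0.98 (SE 0.22, 1.97-fold), and the call ended without WT replicate 1. Vcl (vinculin), which links adhesions to actin, gave 0.12 (SE 0.09), and Iqgap1, a scaffold for Cdc42 and Rac1, gave -0.088 (SE 0.076), neither called.

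Small GTPases switch these machines on, Cdc42 and Rac1 towards Arp2/3 and Rhoa towards formins and myosin. None of the 4 was called by limma, and 2 (Cdc42 and Rac1) had an unadjusted p under 0.05. Cdc42 was at 5.92, 5.74, 5.91, 5.96 and 5.84 in WT and at 5.98 to 6.32 with a median of 6.16 in KO, a difference of 0.26 (SE 0.078). Every KO library was above every WT library, KO replicates 3, 5 and 6 by little. Rac1 gave 0.19 (SE 0.076), Rhoa 0.049 (SE 0.058) and Rhob 0.066 (SE 0.10).

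Septins assemble into hetero-oligomers in which members of different groups take set places, Sept2, Sept7 and Sept9 among them. Of the 6 measured, 2 rose (Sept8 and Sept11), none fell, and the median difference was 0.45. Sept11 was at 3.06, 3.00, 3.05, 2.90 and 2.64 in WT and at 3.30 to 4.31 with a median of 3.60 in KO, with no overlap and KO replicate 2 highest (difference 0.72, SE 0.15). Sept8 was at 3.05, 2.60, 2.98, 2.79 and 2.68 in WT and at 2.97 to 3.60 with a median of 3.29 in KO (difference 0.45, SE 0.12). KO replicate 3 lay inside the WT range of Sept8, and the call ended when any 1 of 6 libraries was left out.

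The core septins Sept7 and Sept2 gave 0.11 and 0.17 (SE 0.082 and 0.077), neither called. The ratio of Sept11 to Sept7 did not overlap, at -2.25 to -1.83 in WT and -1.74 to -0.72 in KO. Sept9, which joins the longer oligomers, was at 2.83, 3.20, 3.10, 2.75 and 2.67 in WT and at 2.74 to 3.93 with a median of 3.22 in KO, with KO replicates 1, 2 and 4 high and KO replicate 6 low (difference 0.45, SE 0.19, not called). Sept10, the member with the lowest WT level per kilobase (-1.03), gave 0.48 (SE 0.17). It was not called, although each KO library was above each WT library.

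Other genes of the same machinery, 226 measured in 8 lists that hold no member, were read from the same fit. Limma called 29 higher in KO (12.8%, beside 4.84% of all genes) and 9 lower (3.98%, beside 4.52%), and their median difference was 0.08. Among genes of adhesion and stress fibres, 11 of 46 rose and 1 fell. Tpm2, the tropomyosin of smooth muscle and myoepithelium, rose by 0.98 (SE 0.17, adjusted p = 0.00461), and the LIM-domain genes Pdlim4 and Pdlim7 rose by 1.39 and 0.57 (adjusted p = 0.00328 and 0.0038).

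Activators of Arp2/3 were read first. Of 27 nucleation promoting factors, 1 rose and none fell, a share near the 4.84% of all genes called higher. That gene was the adaptor Nck2 (0.57, SE 0.17, adjusted p = 0.0483), whose call ended when any 1 of 9 libraries was left out. Jmy, Wipf1 and Wash1 gave -0.37, -0.28 and -0.30 and were not called (adjusted p = 0.0555, 0.062 and 0.0923). Among 17 formins and other nucleators, Diaph1 rose by 0.31 (adjusted p = 0.0226, lost without WT replicate 2 or WT replicate 3) and Lmod1 by 0.36 (adjusted p = 0.0321, lost when any 1 of 5 libraries was left out). Fhdc1 and Daam2 gave -0.24 and 0.46 (adjusted p = 0.123 and 0.126).

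Of 29 genes of turnover, capping and severing, 3 rose and 1 fell. Tmod3, which caps slow-growing ends, rose by 0.38 (SE 0.075, adjusted p = 0.00856). Twf1 and Cfl2 rose by 0.29 and 0.33 (adjusted p = 0.0326 and 0.0387), calls that ended when any 1 of 6 and of 9 libraries, respectively, was left out. Coro2a fell by 0.38 log2 (adjusted p = 0.0193, and 0.0569 without WT replicate 1).

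Among 56 regulators and effectors of these small GTPases, 6 rose and 3 fell. Pak1, a kinase that Cdc42 and Rac1 activate, rose by 1.26 (SE 0.19, adjusted p = 0.00235), its WT libraries at 0.70 to 1.67 and its KO libraries at 2.09 to 3.04. Rhoc, a close relative of Rhoa, rose by 0.74 (SE 0.14, adjusted p = 0.00846). Ect2, the exchange factor that drives Rhoa in cytokinesis, rose by 2.09 (SE 0.43, adjusted p = 0.0105) from a WT mean of -1.41 log2 CPM. Arhgap35, which turns Rhoa off, fell by 0.37 log2 (SE 0.078, adjusted p = 0.0115), and Arhgef5 and Rhof were the other 2 that fell.

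Membrane skeleton genes moved in both directions, with 3 of 30 cortex and membrane linkers higher and 4 lower. Add3 (an adducin) and Epb41l1 (a band 4.1 protein) fell by 0.86 and 0.45 log2 (adjusted p = 0.00235 and 0.0145), and Nf2 (merlin, an ERM relative) rose by 0.30 (adjusted p = 0.00885). The other 2 that rose were Epb41l2 and Anln, and Myo1d fell as well. Of the other septins, Sept5 rose by 0.93 (adjusted p = 0.0324, lost when any 1 of 7 libraries was left out) and Sept4 gave -0.092 (adjusted p = 0.792). Among 19 genes of the Srf, Mrtf and Yap systems, which respond to actin state and tension, 2 rose, where 4.84% of all genes were called higher. The median difference of the 19 was 0.097. Ankrd1, a Yap target, rose by 2.85 (SE 0.56, adjusted p = 0.00822) from a low WT mean of -2.96 log2 CPM. Tead4, a partner of Yap, rose by 1.61 (adjusted p = 0.0157), also from a low WT mean, -1.06 log2 CPM. Wwtr1 and Elk3 gave 0.45 and 0.34 (adjusted p = 0.0554 and 0.171).

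Markers of contractile cells, macrophages and muscle were measured beside the members, because these cells are rich in the same proteins. All their defining markers were in the table. The score of a list is its mean log2 CPM minus the WT mean, tested by exact permutation of genotype (two-sided, adjusted over 9 lists, smallest p possible 0.00126). Basal and myoepithelial markers scored 0.40 higher in KO (exact permutation p = 0.0101, adjusted 0.0379), and 6 of 7 KO glands exceeded the WT maximum. The WT scores were -0.23, 0.018, 0.21, 0.011 and -0.0081, and the KO scores 0.64, 0.59, 0.019, 0.31, 0.32, 0.33 and 0.58. Of the 11 markers 7 rose, among them Krt14 (0.55) and Acta2 (0.51), while Krt5 gave 0.32 and was not called. Myh11 (-0.18) and Trp63 (-0.059) had negative differences and were not called. The score lost its call without WT replicate 1, 2 or 3 or KO replicate 1 or 2 (adjusted exact permutation p up to 0.0682). Among day 10 libraries it was 0.57 (adjusted exact permutation p = 0.0804), and there every KO score was above every WT score. The exact p was thus the smallest that 3 WT and 5 KO libraries allow, whatever the size of the difference.

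In KO glands the macrophage list scored 0.38 higher (exact permutation p = 0.0126, adjusted 0.0379), and 5 of 7 KO glands exceeded the WT maximum. The WT scores were -0.0046, -0.068, -0.16, 0.18 and 0.049, and the KO scores 0.57, 0.40, 0.51, 0.59, 0.39, 0.045 and 0.18. Of the 14 markers 5 rose, Cx3cr1, C1qa and C1qb among them and Cd68 by 0.50, while Csf1r and Adgre1 gave 0.12 and 0.32 and were not called. The score lost its call when any 1 of WT replicates 1 to 3 or KO replicates 1 to 5 was left out (adjusted exact permutation p up to 0.0727), and it was 0.24 among day 10 libraries (adjusted exact permutation p = 0.402). General leukocyte markers scored 0.22 higher (exact permutation p = 0.183, adjusted 0.275), and limma called none of the 8, with 2 at an unadjusted p under 0.05. Ptprc, Laptm5 and Cd53 gave 0.13, 0.47 and 0.39.

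Skeletal muscle markers scored 1.15 higher (exact permutation p = 0.119, adjusted 0.267), with scores of -1.67, -0.63, 0.76, 1.01 and 0.53 in WT and 1.26, 0.77, 1.13, 2.91, 1.90, -1.05 and 1.11 in KO. Without KO replicate 6, the KO library of lowest score, the score was 1.51 higher (adjusted exact permutation p = 0.0195). Leaving out any other library gave an adjusted exact permutation p of 0.184 (without WT replicate 4) to 0.460 (without WT replicate 1). All 14 had a positive difference, limma called none, and 1 had an unadjusted p under 0.05. Ckm, Acta1 and Mylpf gave 1.10, 1.23 and 1.29. Luminal epithelial markers, which check the tissue, scored 0.82 higher (exact permutation p = 0.00126, adjusted 0.0114, 7 of 7 KO glands above the WT maximum), where 4 of 7 rose (Krt8, Krt19, Epcam and Cldn4, from 0.30 to 2.76). Krt8 rose by 0.42, Krt18 gave 0.12 and Elf5, at a WT mean of 9.30 log2 CPM, gave -0.25. Fibroblast markers (0.34, exact permutation p = 0.15, adjusted 0.27), endothelial markers (-0.11, p = 0.506, adjusted 0.525), adipocyte markers (0.11, p = 0.525, adjusted 0.525) and pericyte markers (0.098, p = 0.473, adjusted 0.525) did not pass the same exact test.

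**Figure D5:**
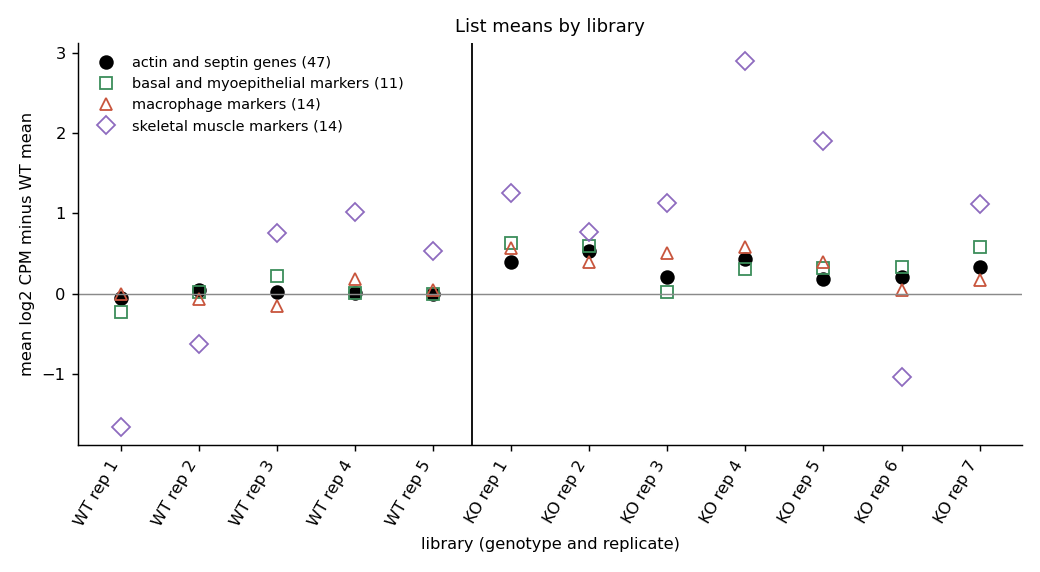
Mean of each list in each library (y axis, log2 CPM minus the WT mean; x axis, library, WT left and KO right of the line) for the 47 members and for 3 marker lists. The members' mean is above the WT range in all 7 KO libraries, the macrophage score in 5 and the basal score in 6, and the muscle score varies most, from -1.67 in WT replicate 1 to 2.91 in KO replicate 4.

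Fits that held a marker score equal called fewer members and fewer of all genes than the fit without a covariate (19 and 1108). The basal list itself holds contractile genes such as Acta2, an actin, and Myh11, a myosin heavy chain. Its score is therefore not independent of actin genes, and holding it equal partly adjusts such genes for each other. With the basal score as a covariate, limma called 1 member (Arpc1b) and 12 of all genes. The median difference of the members was then 0.17, and 37 were positive. With the macrophage score it called no member and 1 of all genes, with 13 members at an unadjusted p under 0.05, a median of 0.24 and 43 positive. With the leukocyte score 10 members and 502 of all genes were called, and with the muscle score 8 and 269. Genotype itself shared 54.1% and 57.4% of the variance of the basal and macrophage scores, so score and genotype are partly confounded in such a fit, and the part of these cells in the members' differences was not tested.

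Single members kept different shares of their difference at equal marker scores. Arpc1b gave 0.77 at equal basal score, 0.65 at equal macrophage score and 0.80 at equal muscle score, beside 0.80 without a covariate. Tmsb10 gave 1.16, 0.52 and 0.89, beside 1.09. Zyx gave 0.42, 0.74 and 0.88, beside 0.98, its lowest at equal basal score. Capg gave 0.64, 0.70 and 0.76, beside 0.82.

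The same differences were taken within 1 day of lactation. Among the day 10 libraries alone (3 WT, 5 KO), Arpc1b differed by 0.79, Tmsb10 by 0.83, Capg by 0.82, Zyx by 1.13, Tpm4 by 0.78 and Sept11 by 0.78. Fewer members were called with fewer libraries, 7 of 47 beside 268 of all genes. These were Arpc1b, Arpc4, Tmsb10, Capg, Cotl1, Actn1 and Myl12a. Leaving out each library in turn, 9 members kept their call throughout: Arpc1b, Arpc4, Arpc5, Tmsb10, Capg, Cotl1, Tpm4, Myl12a and Sept11. The share of all called genes that did so is not given here, so this count only describes the members. Some calls were gained: Tmsb4x without KO replicate 4, 5 or 6, Msn without KO replicate 5 or 6, Cdc42 without KO replicate 3, 5 or 6, and Coro1c without KO replicate 3 or 6.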

How the data were processed

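PolyA RNA of 12 mammary glands (5 WT, 7 KO) was sequenced as paired reads, per the labels' protocols. Per the submitters' processing notes, the tools, in no stated order, were limma 3.34.5, RSEM 1.3.0, STAR 2.5.2b, bcl2fastq 2.17 and Trimmomatic 0.33, with builds mm10 and hg19 named without their roles. The authors deposited log2 CPM for 11834 genes, already quantile-normalized: the linear values of each library sum to between 988803 and 988808 CPM. Beside them stand the authors' deposited log2 fold change, score (a moderated t statistic), p-value and adjusted p-value. The sources used here do not give the gene filter. Counts were not used, and depth, estimated from the steps between tied low values, was roughly 17.1 to 34.7 M reads per library, so no counting interval is given.

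The log2 values were fitted by genotype with limma 3.58.1 (R 4.3.3, eBayes with trend and robust options), with Benjamini-Hochberg adjustment over the whole table. Calls were made under 0.05 of the adjusted p, and "rose" and "fell" are used of called genes. Mice are the replicates, and p-values measure the spread between these mice. The members and lists were chosen with earlier results of these data known. The text names all measured members, the 4 genes of smallest adjusted p in each pathway list, up to 3 first markers of each marker list for the cell types discussed, and Btn1a1. Epb41l2, Anln, Myo1d, Arhgef5, Rhof and the called markers Krt19, Epcam, Cldn4, Cx3cr1, C1qa and C1qb were named after their values were seen. So were the basal markers Myh11 and Trp63 and the macrophage markers C1qc, Cd163 and Fcgr1. A few genes that the rule takes are not reported here. Defining markers of the lists that did not pass are summarised by their scores: Pecam1, Cdh5 and Kdr gave -0.011, -0.16 and -0.57, Col1a1, Col3a1 and Pdgfra 0.50, 0.29 and 0.29, Adipoq, Plin1 and Fabp4 0.14, -0.06 and 0.23, and Rgs5, Pdgfrb and Des 0.30, -0.022 and 1.20 log2, of which Kdr was called. Positions and transcript lengths come from GENCODE M21 (mm10), joined by symbol for all 47 members, and promoters from RefSeq (GRCm38.p6). On simulated data, the fit recovered 98 of 100 genes changed by 1 log2 and 49 of 100 changed by 0.5, with 11 false calls. Outlying libraries were sought with Dixon's ratio at the 95% level. The alternatives were a replicate block, lactation day, day 10 libraries alone, other normalizations and filters, eBayes without options, library weights, leaving out each library, a threshold of 0.01, the authors' statistics and 4 marker scores as covariates. Cyclic loess, the fit that leaves out KO replicates 6 and 7 without a block, and the changes of libraries for marker scores were added after seeing the data. Tables were joined and figures drawn with Python 3.11.15, pandas 2.3.3 and matplotlib 3.10.9.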

Additional observations from a re-analysis of the deposited data

Results flagged for a closer look

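In each group of 5 WT or 7 KO libraries, the library farthest from its neighbours was compared with Dixon's critical value at the 95% level. Of 112 such groups (47 members and 9 marker scores, in either genotype), 7 held a library that stood apart, and chance alone gives about 1 in 20. KO replicate 4 was the library in 3 of the 7. It was the highest KO library for Tmsb4x (6.98 log2 CPM, with the next at 6.18) and for Myl12b (4.34, with the next at 4.06), and the lowest for Arpc1a (5.20, with the next at 5.41). That library also had the highest of the 12 scores for skeletal muscle (2.91), fibroblast (1.15), macrophage (0.59), leukocyte (0.56) and pericyte markers (0.47). The Tmsb4x difference was 0.32 at equal muscle score, 0.11 at equal macrophage score and 0.37 at equal leukocyte score, beside 0.55 without a covariate, and the part of these cells was not tested. Without KO replicate 4, Tmsb4x was called. WT replicate 4 was the lowest WT library for Ezr (4.28, with the next at 4.87), WT replicate 1 for Myl9 (4.66, with the next at 5.09) and WT replicate 5 for Sept10 (-0.21, with the next at 0.36). WT replicate 2 had the highest WT adipocyte score (0.57, with the next at -0.04).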

How the results depend on the processing

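No alternative reversed the direction of a called member, and the count of members called stayed within 1.5 times of 19 under lactation day, other normalizations and filters, other eBayes options, library weights and the authors' deposited statistics. The deposited values were already quantile-normalized, so repeating that step or centring each library on its median could change little. Those settings do not test the choice of normalization. Fewer members (and, of all genes, of pathway genes outside the members) were called by limma under the following settings. Day 10 libraries alone gave 7 members, 268 of all genes and 15 pathway genes, where fewer samples were fitted. A threshold of 0.01 gave 7, 249 and 13. The basal score as a covariate gave 1, 12 and 0 (36 pathway genes at an unadjusted p under 0.05), and the median difference of the members fell to 0.17 from 0.29. The macrophage score gave 0 (13 members at an unadjusted p under 0.05), 1 and 0 (34 pathway genes). The leukocyte score gave 10, 502 and 23, and the skeletal muscle score 8, 269 and 14. For the covariates, the cause was not tested. Leaving out each library in turn gave 10 members (without WT replicate 1) to 22 (without KO replicate 6), 559 to 1327 of all genes, 23 to 45 pathway genes, and a median of 0.25 to 0.33. The count of all genes moved by over 1.5 times without WT replicate 1, 2, 3 or 5 or KO replicate 1, to 559, 644, 725, 696 and 724. Over single members and alternatives, 1160 values kept their side of the threshold, 124 lost a call and 28 gained one. The 1160 include the values of the repeated quantile normalization and of the median centring. Among marker scores, day 10 libraries alone gave 0.57 for the basal score (adjusted exact permutation p = 0.0804), 0.24 for the macrophage score (0.402) and 0.95 for the luminal score (0.0804). For the basal and luminal scores the unadjusted exact p was the smallest that 3 WT and 5 KO libraries allow, so these values do not show a weaker difference. Leaving out each library gave 0.34 to 0.46 for the basal score (adjusted exact permutation p = 0.00974 to 0.0682), 0.34 to 0.44 for the macrophage score (0.0195 to 0.0727), 0.73 to 1.51 for the muscle score (0.0195 to 0.460) and 0.74 to 0.91 for the luminal score (0.00974 to 0.0273). Deviations of same-numbered WT and KO libraries were weakly correlated (-0.162, 0.002, -0.17, 0.213 and 0.079). Whether these samples share more than a number was not tested. With a replicate block on replicates 1 to 5, 17 members, 1090 of all genes and 35 pathway genes were called, with a median of 0.27, beside 19, 1286, 42 and 0.27 on the same libraries without the replicate block. The block fit called 14 of the 19 members and the fit on the same libraries without it 16 of them, and both called Tmsb4x, Msn and Sept9 in addition. No pseudocount was needed on this scale, and a fit without the authors' own filter was not run. With 5 and 7 libraries, the simulated data, with independent values, gave calls for 49 of 100 changes of 0.5 log2. The SE beside a member that was not called gives how closely its own difference is known.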
